A study of Mus musculus with 6 samples.

Results

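Krt7, Krt8, Krt18 and Krt19 are the keratins of simple epithelia, and their transcripts were compared between reporter-positive and reporter-negative cells of the embryonic mouse genital tubercle, the outgrowth that becomes the penis or clitoris. The set held every probe set annotated to these genes, 6 of the 45101 on the array, and 4 genes of the 18193 with a probe set of their own. The 4 genes had been chosen by their measured difference in this same contrast, so their values are a description and carry no test. All arrays came from embryos at 12.5 days post coitum (Theiler stage TS20) that carried the ShhGFPCre allele, Shhtm1(EGFP/cre)Cjt, and the yellow fluorescent reporter Gt(ROSA)26Sortm3(CAG-EYFP)Hze on a mixed background, both sexes pooled. The positive group was the sorted fraction labelled urethral epithelium, with reporter fluorescence. The negative group was the rest of the tubercle, from embryos with the same alleles. Replicates 1, 2 and 3 of either group were pools of 3, 5 and 2 littermates. Cre is made from the Shh locus, so the reporter marks cells that express Shh or descend from such cells, and both groups went through the same trypsin dissociation and sort. The comparison asks which transcripts set the epithelium apart from the other tubercle cells.

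Keratins build the intermediate filaments of epithelial cells, and each filament needs partners of both types, a basic type II chain and an acidic type I chain. Krt8 (type II) and Krt18 (type I) are the pair that appears earliest in the embryo and that fills single-layered epithelia. Krt7 (type II) and Krt19 (type I) join them in ducts, bladder and other urogenital linings, and mesothelium and periderm also make keratins of this class. Stratified epithelia rely on other pairs, such as Krt5 with Krt14.

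In the RefSeq annotation of assembly GRCm38.p6, 3 of the 4 genes lie in the type II keratin cluster of chromosome 15. Krt7 occupies chr15:101412403-101427806 on the plus strand, Krt8 chr15:101996711-102004342 on the minus strand and Krt18 chr15:102028216-102032026 on the plus strand. Krt8 and Krt18 stand head to head, with 23873 bases and 0 protein-coding genes between them, although Krt18 is a type I keratin. Krt7 is 568904 bases from Krt8, with 23 protein-coding genes between, of which 22 have Krt symbols. Krt19 lies in the type I cluster of chromosome 11, at chr11:100140810-100145926. The promoters of the 3 chromosome 15 genes are shown, since Krt8 and Krt18 face each other and all 3 share a cluster. Each runs from 250 bases before to 50 bases after the annotated start, read 5′ to 3′ on the gene's strand, from RefSeq on GRCm38.p6. Krt7 is chr15:101412153-101412452 (plus strand), Krt8 is chr15:102004293-102004592 (minus strand) and Krt18 is chr15:102027966-102028265 (plus strand). Capitals mark matches to 7 short motifs.
Krt7: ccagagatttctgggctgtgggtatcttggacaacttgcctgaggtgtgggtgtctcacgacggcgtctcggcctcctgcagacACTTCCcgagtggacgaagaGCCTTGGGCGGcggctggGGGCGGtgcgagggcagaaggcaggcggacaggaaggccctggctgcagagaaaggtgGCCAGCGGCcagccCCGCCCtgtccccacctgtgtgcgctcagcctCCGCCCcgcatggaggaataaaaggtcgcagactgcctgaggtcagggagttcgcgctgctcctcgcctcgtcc
Krt8: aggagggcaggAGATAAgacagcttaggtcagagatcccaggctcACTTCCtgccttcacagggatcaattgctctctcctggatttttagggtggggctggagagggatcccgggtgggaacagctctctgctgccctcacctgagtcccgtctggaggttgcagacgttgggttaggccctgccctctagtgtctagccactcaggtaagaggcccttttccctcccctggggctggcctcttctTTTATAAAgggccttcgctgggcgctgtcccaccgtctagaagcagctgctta
Krt18: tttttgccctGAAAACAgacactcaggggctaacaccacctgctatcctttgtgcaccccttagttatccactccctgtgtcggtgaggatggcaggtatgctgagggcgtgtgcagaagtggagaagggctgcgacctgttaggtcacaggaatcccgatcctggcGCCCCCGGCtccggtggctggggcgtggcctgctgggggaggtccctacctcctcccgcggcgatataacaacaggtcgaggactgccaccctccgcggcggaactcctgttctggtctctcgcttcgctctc

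Of these sequences 66.3% (Krt7), 58.0% (Krt8) and 61.3% (Krt18) of bases were G or C, against a median of 52.7% over 32851 promoters of the same length. Motifs were searched on both strands and had a match in the following shares of all 32851 promoters: TATAAA, the core of the TATA box, in 13.6%; GGGCGG, the GC box bound by Sp factors, in 35.7%; GCCNNNGGC, an AP-2 site, in 16.6%. TGTTTNC, a forkhead site, matched in 20.5%, GGAAGT, the core bound by ETS factors, in 23.8%, the site of GATA factors, AGATAA, in 11.2% and the grainyhead-like site, AACCGGTT, in 0.146%. The Krt7 promoter held 4 GC boxes, 2 AP-2 sites and 1 ETS core, and 1 AP-2 site overlapped a GC box. The Krt8 promoter held 1 ETS core, 1 GATA site and TATAAA on both strands in overlapping letters, from -3 and -1 relative to the annotated start. The Krt18 promoter held 1 AP-2 site and 1 forkhead site. AACCGGTT was not in any of the 3 windows, and no motif of the 7 was found in all 3. These are matches of letters and were not tested as binding sites.

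Krt8 differed most of the 4 genes. As deposited, on a linear scale, its brightest probe set, 1420647_a_at, read 228, 548 and 12.5 in positive replicates 1, 2 and 3, against 11.5, 18.9 and 4.21 in negative replicates 1, 2 and 3. Positive replicate 3 lay between the negative arrays, so the deposited values of the groups overlap. The level of background was taken on each array as its brightest bacterial control probe set with no spiked transcript, and this was 4.47, 4.41 and 1.12 in positive arrays and 5.36, 8.28 and 2.03 in negative arrays. Krt8 was above that level on all 6 arrays with this probe set. Probe set 1423691_x_at read 178, 460.4 and 8.51 in positive arrays, against 1.14, 25.6 and 0.32 in negative arrays. Probe set 1435989_x_at read 185, 493 and 9.49 in positive arrays, against 0.87, 10.5 and 2.85 in negative arrays. The x_at suffix marks probe sets with probes shared between transcripts, and on negative replicates 1 and 3 the 1423691_x_at signal was below the background level while 1420647_a_at was above it.

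Krt7, the other type II member, read 51.1, 98.6 and 3.01 in positive arrays, against 4.09, 8.72 and 1.87 in negative arrays, as deposited. Its single probe set exceeded the background level on all 3 positive arrays and on 1 of 3 negative arrays, replicate 2. Krt18, the type I partner of Krt8, read 137, 299 and 6.07 in positive arrays, against 19.7, 28.02 and 7.09 in negative arrays. It was above background on all 6 arrays, and positive replicate 3 was lower than every negative array. Krt19, a type I keratin with hardly any tail domain, read 60.8, 121 and 2.67 in positive arrays, against 7.62, 1.10 and 2.05 in negative arrays. It exceeded background on all positive arrays and on negative replicates 1 and 3, in replicate 3 by 2.05 against 2.03. Counted over the 6 probe sets, 6, 6 and 6 were above background in positive replicates 1, 2 and 3, against 3, 5 and 4 in negative replicates 1, 2 and 3.

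**Figure D1:**
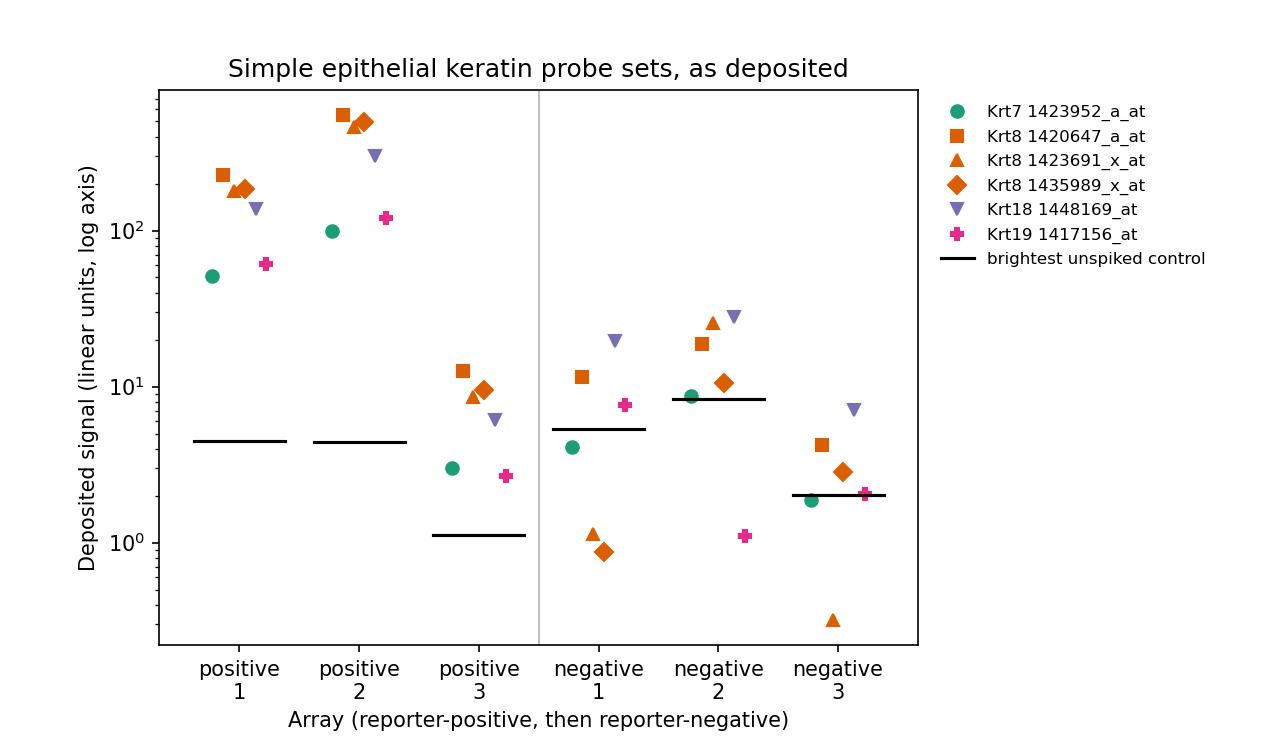
Deposited linear signal (log axis) of the 6 probe sets on each array, 3 positive then 3 negative, with a bar at the brightest unspiked control of that array. All 6 probe sets lie above the bar on each positive array, and positive replicate 3 is dim throughout, with Krt8 at 12.5 against 228 and 548 on the other positive arrays.

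Positive replicate 3 stood apart from the other 5 arrays. The median deposited signal of named probe sets was 4.73, 3.56 and 0.34 in positive replicates 1, 2 and 3, against 7.62, 8.84 and 2.15 in negative ones, while the mean of the hybridization controls was 1734 to 1884 in positive and 1443 to 1762 in negative arrays. On positive replicate 3, 24.6% of named probe sets exceeded background, against 44.0% to 59.3% elsewhere, and its Spearman correlation with other arrays across probe sets was 0.325 to 0.345, against 0.716 to 0.862 among the rest. The ratio of 3′ to 5′ actin signal was 4.23, 10.8 and 10.3 in positive arrays, against 4.45, 4.88 and 6.98 in negative arrays. The same ratio for Gapdh was 6.18, 7.12 and 7.35 in positive arrays, against 9.27, 8.82 and 5.83 in negative arrays. Shh, the gene that drives Cre, read 287, 718 and 16.9 in positive arrays, against 1.31, 18.4 and 2.51 in negative arrays (1436869_at, as deposited). Tests are therefore given for all 6 arrays and for the 5 left when positive replicate 3 is set aside. The positive group of the 5 arrays is replicates 1 and 2 alone.

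Signals were next quantile normalized, which gives all arrays 1 distribution, and expressed as log2(signal + 16). On this scale Krt8 (1420647_a_at) was 8.20, 9.45 and 9.63 in positive arrays, against 4.52, 4.65 and 4.73 in negative arrays. Krt18 was 7.47, 8.75 and 8.71 in positive arrays, against 4.79, 4.85 and 5.16 in negative arrays. Both genes of the Krt8 and Krt18 pair were thus high in every positive array, and replicate 1 was the lowest of them. Krt7 was 6.13, 7.42 and 7.50 in positive arrays, against 4.20, 4.36 and 4.30 in negative arrays. Krt19 was 6.35, 7.67 and 7.17 in positive arrays, against 4.36, 4.05 and 4.34 in negative arrays. For each of the 6 probe sets all positive arrays were above all negative arrays after normalization, which was not so in the deposited values. Of all genes tested, each by 1 probe set, 6.29% were above throughout in this way and 6.99% below.

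Krt8 averaged 9.09 ± 0.78 in positive arrays and 4.63 ± 0.11 in negative arrays (SD, n = 3 each), a log2 difference of 4.46, and of 4.35 without positive replicate 3. Its other probe sets differed by 4.44 (1423691_x_at) and 4.54 (1435989_x_at). Krt18 averaged 8.31 ± 0.73 in positive and 4.94 ± 0.20 in negative arrays (SD, n = 3 each), a difference of 3.37, or 3.30 without positive replicate 3. The spread within the positive group was larger than within the negative group for all 4 genes, and each difference was larger than both spreads. Krt19 averaged 7.06 ± 0.66 in positive and 4.25 ± 0.17 in negative arrays (SD, n = 3 each), a difference of 2.82, or 2.95 without positive replicate 3. Krt7 averaged 7.02 ± 0.77 in positive and 4.29 ± 0.08 in negative arrays (SD, n = 3 each), a difference of 2.73, or 2.66 without positive replicate 3. The constant of 16 understates the change of dim genes. In sorted pools, fewer cells that make a transcript and less of it per cell cannot be told apart.

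Among the 14071 genes that passed the filter on dim signals, all 4 keratins included, Krt8 had difference number 2 from the top, Krt18 number 4, Krt19 number 6 and Krt7 number 7. Of the 4 genes, 1 (Krt8) passed an adjusted p of 0.05 (limma, Benjamini-Hochberg), where 0.0142% of the genes tested passed. All 4 had positive arrays above negative arrays without overlap, which held for 6.29% of the genes tested. In the 5 arrays 4 of 4 passed, against 0.602% of 13960 genes. The genes were selected on this contrast, so nothing is read from these counts. With any 1 of the negative arrays left out, 0 of 4 passed, and 0 of 4 passed with values as deposited, median centring, scaling to hybridization or Gapdh controls, a constant of 64 or the mean of probe sets (limma).

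The size of the difference varied between arrays of equal pool size. For Krt8 the positive minus negative log2 difference was 3.68 in the pools of 3, 4.80 in the pools of 5 and 4.90 in the pools of 2. For Krt18 it was 2.67, 3.90 and 3.55 in the same pools, for Krt7 1.93, 3.06 and 3.19, and for Krt19 1.99, 3.62 and 2.84. Krt7 was below background in the negative pools of 3 and 2 and Krt19 in the negative pool of 5, so these differences are measured against a bound. All 4 genes thus had their smallest difference in the pools of 3 littermates. The labels do not say that positive and negative pools of equal size were the same embryos.

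Scaling to a housekeeping transcript gave the same order of groups. With each array scaled to its Gapdh control probe sets, Krt8 was 27.4%, 107% and 91.9% of the Gapdh signal in positive arrays, against 1.78%, 2.11% and 1.28% in negative arrays. Krt18 was 16.5%, 58.3% and 44.5% in positive arrays, against 3.05%, 3.14% and 2.16% in negative arrays. The groups do not overlap for either gene on this scale, and the dim positive replicate 3 fell between replicates 1 and 2. The share of all genes without overlap on this scale was not counted. Krt7 was 6.15%, 19.2% and 22.0% in positive arrays, against 0.634%, 0.976% and 0.570% in negative arrays. Krt19 was 7.33%, 23.5% and 19.6% in positive arrays, against 1.18%, 0.123% and 0.625% in negative arrays. The lowest positive array exceeded the highest negative array 12.98-fold for Krt8, 6.30-fold for Krt7, 6.20-fold for Krt19 and 5.26-fold for Krt18. These percentages compare arrays for 1 probe set and are not levels of 1 gene against another.

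**Figure D2:**
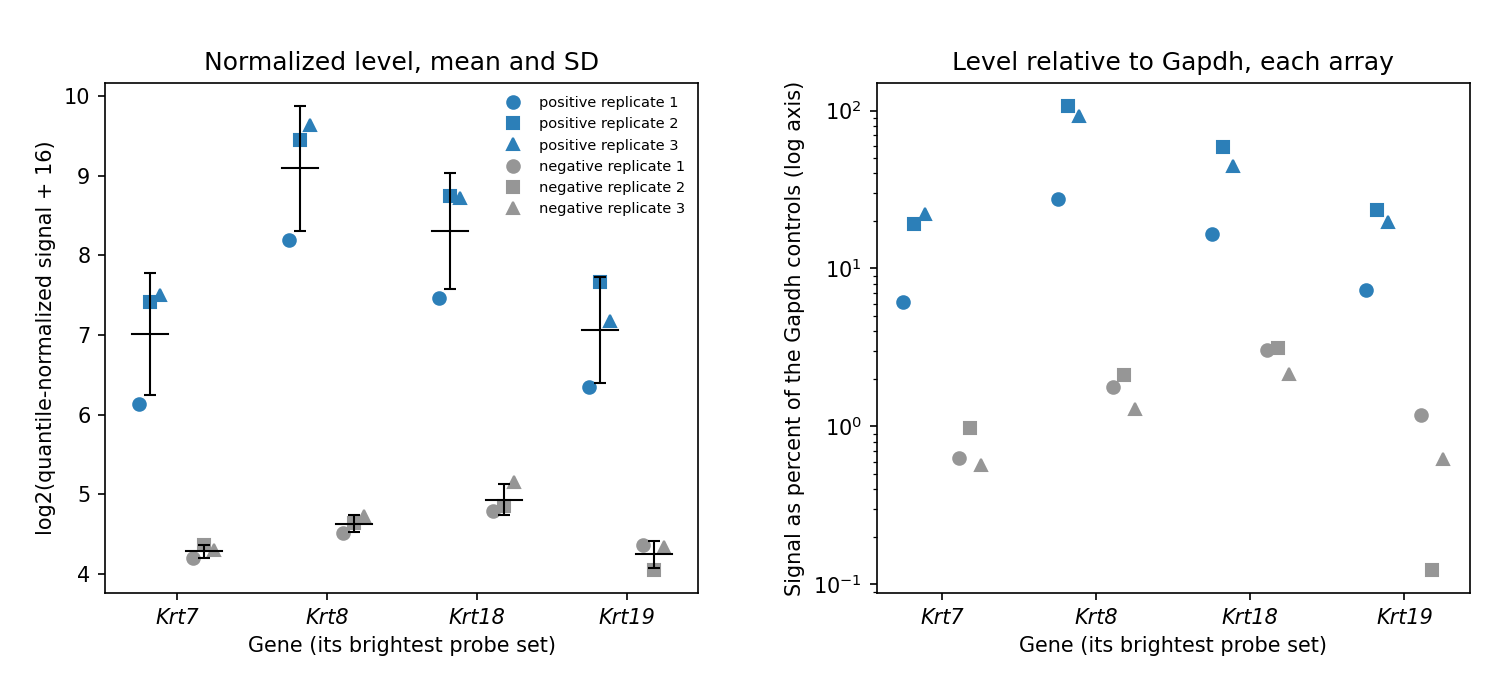
Each keratin's brightest probe set by array, positive left of negative: log2(quantile-normalized signal + 16) with group mean and SD (n = 3), and signal as percent of the Gapdh controls (log axis). Positive replicate 1 is the lowest positive array in all 8 comparisons, and it is still above every negative array.

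Positive replicate 1 had lower keratin signals than positive replicate 2 by a nearly equal step in all 4 genes. Replicate 2 minus replicate 1 was 1.28 for Krt7, 1.25 for Krt8, 1.28 for Krt18 and 1.31 for Krt19 on the normalized log2 scale. Scaled to Gapdh, replicate 2 was 3.12-fold (Krt7), 3.89-fold (Krt8), 3.53-fold (Krt18) and 3.21-fold (Krt19) above replicate 1, and scaled to actin 8.47-fold, 10.6-fold, 9.59-fold and 8.71-fold for the same genes. Positive replicate 3 minus replicate 2 was 0.08 for Krt7, 0.18 for Krt8, -0.03 for Krt18 and -0.50 for Krt19. Mesenchyme markers differed between the same arrays. All 14 listed mesenchyme genes were above background in positive replicate 1, against 10 in replicate 2 and 8 in replicate 3, and 13 to 14 in negative arrays. Their summed normalized signal was 3350, 552 and 875 in positive replicates 1, 2 and 3, against 3810, 2837 and 2999 in negative replicates 1, 2 and 3. Fn1 of this list went the other way, with 8.58, 7.92 and 8.69 in positive arrays, against 7.76, 7.43 and 7.80 in negative arrays. It makes up a large part of the sums in positive replicates 2 and 3. The list median, set against the negative mean, was -0.03, -2.03 and -1.92 in positive replicates 1, 2 and 3. None of the 14 passed in either fit (limma, 8 at an unadjusted p under 0.05 in the 6 arrays and 7 in the 5). Over all genes tested, 5.17% had an unadjusted p under 0.05 in the 6 arrays and 9.15% in the 5 arrays. The 3′ to 5′ actin ratio was also lower in positive replicate 1, at 4.23, than in replicates 2 and 3. For Gapdh that ratio was 6.18 in replicate 1, against 7.12 and 7.35 in replicates 2 and 3. The part of mesenchyme signal or of these ratios in the keratin values was not tested.

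Most markers of the labelled cell type read higher in the positive arrays, and Prom1 read lower. Of 13 simple epithelium genes with a probe set, 12, 12 and 11 were above background in positive replicates 1, 2 and 3, against 7, 5 and 9 in negative replicates 1, 2 and 3. Their summed normalized signal was 545, 1077 and 1134 in positive arrays, against 216, 241 and 220 in negative arrays. Prom1 was the brightest of these genes in every negative array, at 7.25, 7.59 and 7.54 on the log2 scale. It makes up most of the negative sums. The list median in positive replicates 1, 2 and 3 was 1.20, 2.16 and 1.68 against the negative mean, so replicate 1 was the lowest here as for the keratins. None of 12 tested genes passed in the 6 arrays (limma, 10 at an unadjusted p under 0.05, list median 1.86, against -0.03 over all genes tested), and 9 of 12 passed as higher in the 5 arrays, against 0.552% of all genes tested there. Among these, Cdh1, the epithelial cadherin, differed by 2.85 (SE 0.31, adjusted p = 0.000499, limma, Benjamini-Hochberg) in the 5 arrays. The tight junction protein Cldn7 differed by 2.19 (SE 0.36) there. Of the 9, Cldn6, Cldn7 and Rab25 were above background on 0 of 3 negative arrays. A gene that passed the filter on dim signals through the positive arrays alone had to differ. The list was also chosen with earlier results of these data known, so nothing is read from the count of 9. Prom1, a membrane protein that other cells also make, was lower in every positive array than in any negative array, with 6.88 ± 0.10 in positive and 7.46 ± 0.18 in negative arrays (SD, n = 3 each), and did not pass. Muc1 was below background on all 6 arrays.

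**Figure D3:**
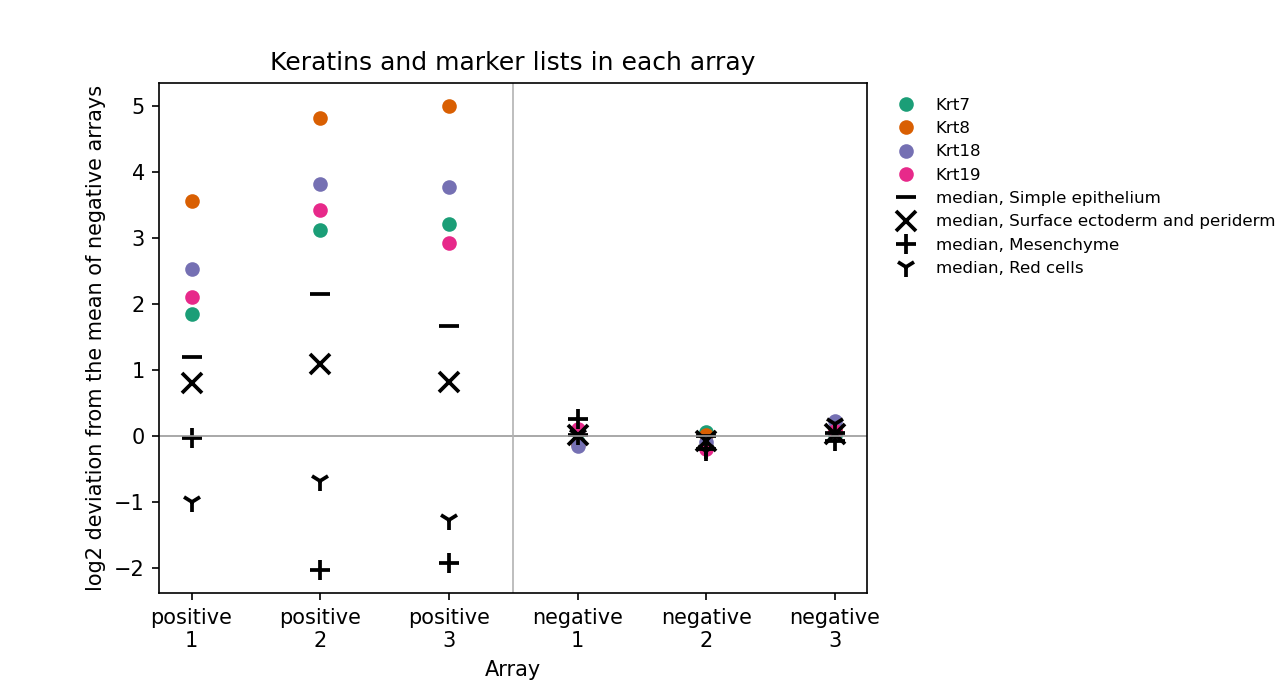
log2 deviation of each keratin and of 4 marker list medians from the mean of the negative arrays, by array, 3 positive then 3 negative. The 4 keratins and the simple epithelium median are lowest in positive replicate 1 among the positive arrays, where the mesenchyme median is -0.03 against -2.03 and -1.92 in replicates 2 and 3.

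Other tissues that make simple keratins were checked in the same way. Of 9 mesothelium genes, 5, 3 and 3 were above background in positive arrays and 3, 2 and 3 in negative arrays, with summed signals of 211, 126 and 139 in positive arrays and 99.1, 116 and 71.5 in negative arrays. Msln, Lrrn4 and Gpm6a were not above background on any positive array, and Wt1, Upk3b and Muc16 were above it on 1 each. Aldh1a2 was above it on 2 positive and 3 negative arrays, Podxl on 3 and 3, and Upk1b on 3 and 0. None of 5 tested passed in the 6 arrays (limma, 2 at an unadjusted p under 0.05, median 0.55). Of 6 tested in the 5 arrays, 1 passed as higher, against 0.552% of all genes. This was Podxl, which vessels and kidney also make, with a difference of 1.52 (SE 0.31, adjusted p = 0.0375, limma, Benjamini-Hochberg). Upk1b, a uroplakin of urothelium, differed by 1.17 (SE 0.26) in the 5 arrays without passing. The Upk1b probe set behind this value was above background on 0 of 3 negative arrays, so its negative level is only a bound. Of 15 surface ectoderm and periderm genes, 13, 10 and 8 were above background in positive arrays and 11 each in negative arrays. Their summed signal was 509, 606 and 627 in positive arrays, against 275, 149 and 210 in negative arrays. Of 13 tested, none passed in the 6 arrays (limma, 7 at an unadjusted p under 0.05, median 0.39) and 5 passed as higher in the 5 arrays, against 0.552% of all genes: Krt15, Krt6a, Grhl3, Perp and Sfn. Dsc3, a desmosomal cadherin of the same list, went the other way, with 4.56 ± 0.68 in positive and 6.16 ± 0.65 in negative arrays (SD, n = 3 each), and did not pass. The part of such cells in the keratin values was not tested.

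Red cell, leukocyte, vessel and nerve or muscle markers were also counted. Of 10 tested red cell genes none passed in the 6 arrays (limma, 5 at an unadjusted p under 0.05, median -1.02), and 5 of 9 passed as lower in the 5 arrays, against 0.0501% of all genes tested there. Of 10 tested leukocyte genes none passed in the 6 arrays (limma, 4 at an unadjusted p under 0.05, median 0.31), and 3 of 11 passed as higher in the 5 arrays, against 0.552% of all genes. Of 7 endothelium genes (median 0.15) and 6 neural crest and muscle genes (median 0.09) none passed in either fit (limma, 0 and 0 at an unadjusted p under 0.05 in the 6 arrays and 0 and 1 in the 5).

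Krt15 and Krt6a had the largest differences among the other keratins. Of 50 other type I and type II keratins listed, 43 had a probe set and 24 passed the filter on dim signals. Their median difference was 0.11, with 19 of 24 positive, 5 higher in every positive array than in any negative array and 0 lower throughout. Among these 5, the probe sets used for Krt17, Krt27 and Krt36 were above background on positive replicate 3 alone. Over all genes tested 47.2% were positive, 6.29% were higher throughout and 6.99% lower throughout. None passed in the 6 arrays (limma, Benjamini-Hochberg), with 2 at an unadjusted p under 0.05, and 2 of 20 passed as higher in the 5 arrays, against 0.552% of all genes. These were Krt15, a type I keratin of basal cells, and Krt6a, a type II keratin of periderm, nail and hair follicle. A member that passed a filter through 1 high group alone had to differ, so these counts describe the 24 genes tested and not all 50.

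Krt15 was 7.04, 6.81 and 7.55 in positive arrays, against 5.18, 4.89 and 4.39 in negative arrays. The groups do not overlap, and here positive replicate 1 was not the lowest. Positive minus negative came to 2.31 (SE 0.40, adjusted p = 0.196, limma, Benjamini-Hochberg) in the 6 arrays and 2.22 (SE 0.33, adjusted p = 0.00545) in the 5 arrays. Krt6a was 5.64, 5.38 and 6.42 in positive arrays, against 4.03, 4.06 and 4.09 in negative arrays, with probe set 1422784_at. This probe set was above background on all 3 positive arrays and on 0 of 3 negative arrays, so its negative level is only a bound. Positive minus negative came to 1.75 (SE 0.35, adjusted p = 0.327, limma, Benjamini-Hochberg) in the 6 arrays and 1.60 (SE 0.22, adjusted p = 0.00319) in the 5 arrays. The other probe sets of Krt6a differed by 0.22 and 0.50, and Krt6a and its near copy Krt6b may share probes.

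Apart from Krt15 and Krt6a, keratins of stratified epithelium gave smaller differences. Krt5, the basal type II keratin, was 6.61, 5.77 and 5.38 in positive arrays, against 5.77, 5.39 and 6.29 in negative arrays. The groups overlap, and the difference of 0.11 was -0.62 with values as deposited, -0.43 with median centring, -0.75 with scaling to hybridization controls, and -0.24 and -0.09 without positive replicate 1 and negative replicate 2. The median over all genes was itself -0.476 with values as deposited, -0.285 with median centring and -0.546 with scaling to hybridization controls. Krt14, its type I partner, was 5.09, 5.20 and 4.30 in positive arrays, against 5.83, 4.75 and 5.72 in negative arrays, a difference of -0.57 that did not pass. Krt10, a type I keratin of differentiated epidermis, differed by -0.58 and did not pass either. Krt75, a type II keratin of hair follicles, was 4.70, 5.75 and 4.03 in positive arrays, against 4.27, 4.17 and 4.05 in negative arrays, so replicate 2 was high and the groups overlap. Its difference was 0.66 in the 6 arrays and 1.17 (SE 0.29, adjusted p = 0.0995, limma, Benjamini-Hochberg) in the 5 arrays. The hair keratins Krt27, Krt25 and Krt36 had differences of 0.70, 0.62 and 0.62, in which positive replicate 3 was high, at 5.88, 5.94 and 5.71, and it was the 1 array of 6 where each was above background. Krt25 differed by 0.05 without that array, and Krt27 and Krt36 did not pass the filter in the 5 arrays. On all 3 positive arrays 4 other keratins had a probe set above background, Krt15, Krt42, Krt5 and Krt6a, and on all 3 negative arrays 5 had, Krt10, Krt14, Krt15, Krt42 and Krt5.

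**Figure D4:**
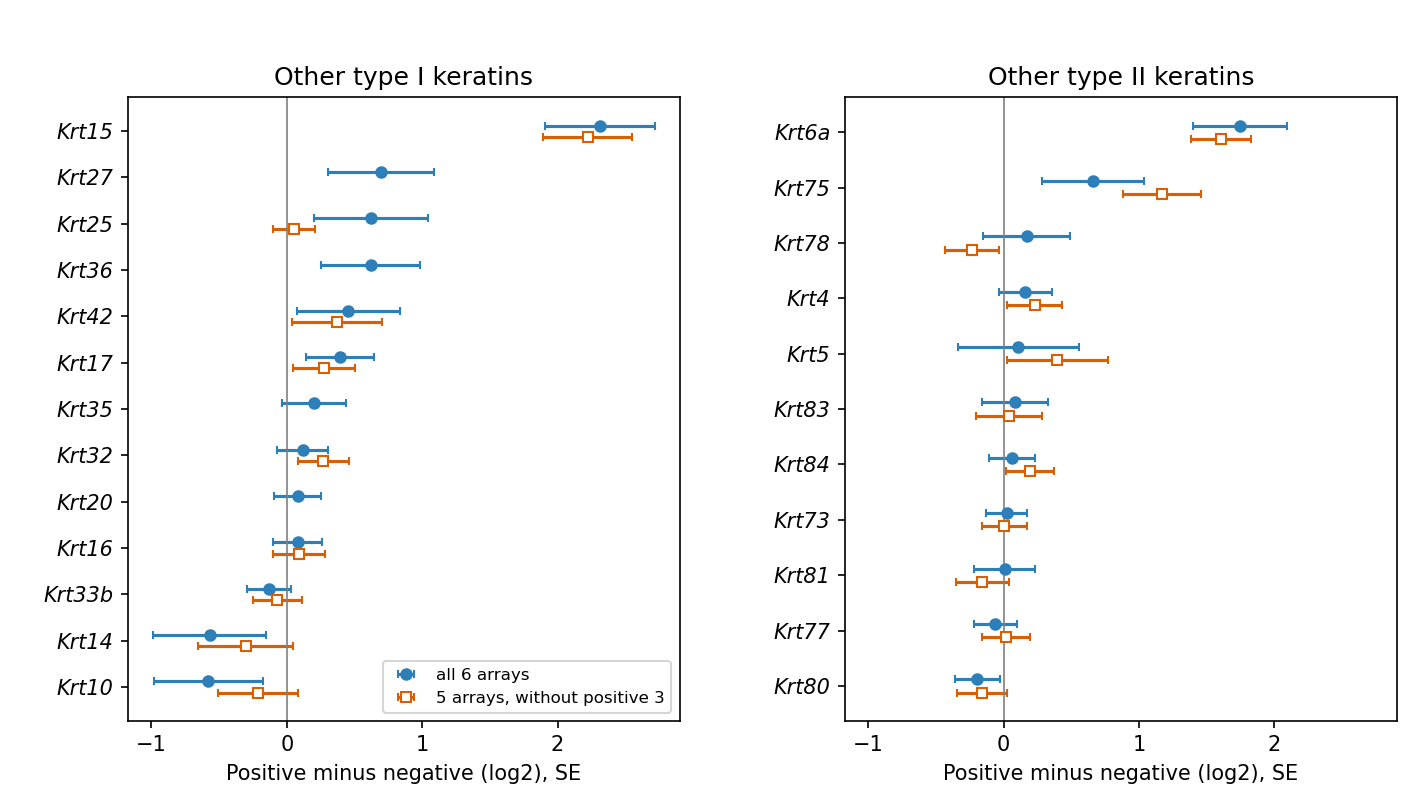
Positive minus negative log2 difference with its SE (limma) for the 24 other keratins tested, type I left and type II right, in all 6 arrays (filled) and without positive replicate 3 (open, where tested). Krt15 at 2.31 and Krt6a at 1.75 have the largest differences of their type, and the other 22 lie between -0.58 and 0.70 in the 6 arrays.

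Genes next to the keratins were counted as well. The 5 protein-coding genes on either side of each of the 4 keratins gave 30 distinct neighbours, of which 22 were tested. None passed in the 6 arrays (limma, 1 at an unadjusted p under 0.05), 16 differences were positive and the median was 0.09, with a range of -0.57 to 2.31. In the 5 arrays 1 of 19 passed as higher, against 0.552% of all genes. This was Krt15, which is the nearest gene on 1 side of Krt19, 4860 bases away. Eif4b, a translation factor that is the next gene after Krt18, averaged 7.09 in positive and 7.14 in negative arrays, a difference of -0.05. Krt78, a type II keratin 86 bases from Krt8 in the annotation, averaged 4.50 in positive and 4.33 in negative arrays, and Krt80, the neighbour of Krt7, 4.14 and 4.33 in the same groups. None of these 3 passed.

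The partners that anchor keratin filaments were counted from a list of 16 tested genes. None passed in the 6 arrays (limma, 7 at an unadjusted p under 0.05), 13 were positive and the median was 0.53. In the 5 arrays 3 of 15 passed as higher, against 0.552% of all genes. Dsp, the desmosome plaque protein that binds keratins, was 7.11, 8.55 and 6.79 in positive arrays, against 5.70, 5.72 and 4.61 in negative arrays, and differed by 2.58 (SE 0.46, adjusted p = 0.0200, limma, Benjamini-Hochberg) in the 5 arrays. Dst, a linker that includes the hemidesmosome form, differed by 1.55 (SE 0.28) and Plec, a plakin that ties filaments to hemidesmosomes, by 1.44 (SE 0.30) in the 5 arrays. Plec read 5.91, 6.48 and 4.32 in the positive arrays, of which replicate 3 was lower than every negative array. Other probe sets of Dst and Plec were mixed as deposited, before normalization. Another of Dst read 12.15, 12.88 and 0.7 in positive arrays, against 20.01, 19.22 and 0.07 in negative arrays. A further Dst probe set read 14.55, 18.03 and 0.34, against 1.19, 1.16 and 0.59. Another of Plec read 7.08, 11.02 and 2.21 in positive arrays, against 8.59, 9.93 and 5.85 in negative arrays, so the groups overlap. Pkp2, a desmosomal plakophilin, averaged 6.51 ± 1.37 in positive and 4.35 ± 0.12 in negative arrays (SD, n = 3 each) and did not pass in either fit.

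Filaments of other classes did not pass in either fit. In the 6 arrays 13 were tested, with a median of -0.12 and 2 at an unadjusted p under 0.05 (limma). Vim, the filament of mesenchyme, was 9.12, 7.32 and 6.67 in positive arrays, against 8.87, 8.20 and 8.83 in negative arrays, so positive replicate 1 was higher than every negative array and replicates 2 and 3 lower. Nefl, a neurofilament, averaged 4.93 ± 1.22 in positive and 6.28 ± 0.17 in negative arrays (SD, n = 3 each).

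A list of regulators of the epithelial state had a median of 0.41 over 18 tested genes, with 13 positive and none past the threshold in the 6 arrays (limma, 8 at an unadjusted p under 0.05). In the 5 arrays 5 of 17 passed as higher, against 0.552% of all genes. Foxa1, a pioneer factor of endodermal epithelia, averaged 7.999 ± 0.88 in positive and 4.19 ± 0.18 in negative arrays (SD, n = 3 each). Its difference was 3.81 in the 6 arrays (SE 0.48, adjusted p = 0.0626, limma, Benjamini-Hochberg) and 3.995 in the 5 arrays (adjusted p = 0.000499). Foxa2, above background on 0 of 3 negative arrays, differed by 2.27 (SE 0.34), the splicing regulator Esrp1 by 2.31 (SE 0.37), Klf5 by 2.00 (SE 0.31) and Grhl3 by 1.92 (SE 0.26) in the 5 arrays. The list also holds Zeb1 and Zeb2, repressors of the epithelial state that mesenchyme makes, which differed by -1.26 and -0.35 in the 6 arrays and passed in neither fit. Trp63, the regulator of stratified epithelium, averaged 6.99 ± 1.10 in positive and 4.93 ± 0.11 in negative arrays (SD, n = 3 each) and passed in neither fit.

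The genes with profiles most like those of the keratins were found by the root mean square distance between profiles centred on their mean over the 6 arrays, among 14071 genes. The nearest to Krt7 were Sox2, a progenitor transcription factor (distance 0.19 on the log2 scale), the keratinocyte kinase Ripk4 (0.21), Esrp1 (0.22), Foxa2 (0.23) and Krt19 (0.24). The nearest to Krt19 were Ripk4 (0.20), Sox2 (0.21), Krt7 (0.24), the tetraspanin Cd151 (0.27) and Esrp1 (0.31). Krt7 and Krt19, a type II and a type I keratin, were among the 5 nearest of each other. The group means were not removed, so the distance includes the positive minus negative difference, 2.73 for Krt7 and 2.82 for Krt19. The keratins were chosen by that difference, so nearness between them is a description. Likeness of profiles apart from that difference was not tested. The nearest to Krt18 were Sox2 (0.32), Krt19 (0.34), Krt7 (0.34), Foxa1 (0.35) and Ripk4 (0.40). The nearest to Krt8 were Shh (0.31), Foxa1 (0.44), Krt18 (0.55), Sox2 (0.83) and Krt19 (0.86). Krt8 was not among the 5 nearest of Krt18, where it stood at number 11, since the distance keeps the size of the difference. Without positive replicate 3 the nearest gene was Foxa2 for Krt7 (0.20), Foxa1 for Krt8 (0.27), Krt19 for Krt18 (0.23) and Ripk4 for Krt19 (0.21), among 13960 genes.

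Scaling and the added constant changed the size of the keratin differences but not their sign. Over 16 alternatives the difference ranged from 1.28 to 4.66 for Krt7, from 2.44 to 5.76 for Krt8, from 1.51 to 4.28 for Krt18 and from 1.46 to 5.05 for Krt19. The smallest values came with scaling to hybridization controls or a constant of 64, and the largest with a constant of 1. Krt8 had the largest difference of the 4 in each of these settings. The median over all genes moved to -0.48 with values as deposited, -0.29 with median centring, -0.55 with scaling to hybridization controls and -0.16 with a constant of 1. Relative to that median, Krt7, Krt8, Krt18 and Krt19 differed by 1.83, 3.03, 2.11 and 2.06 with values as deposited, and by 1.83, 2.99, 2.06 and 2.05 with scaling to hybridization controls.

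**Figure D5:**
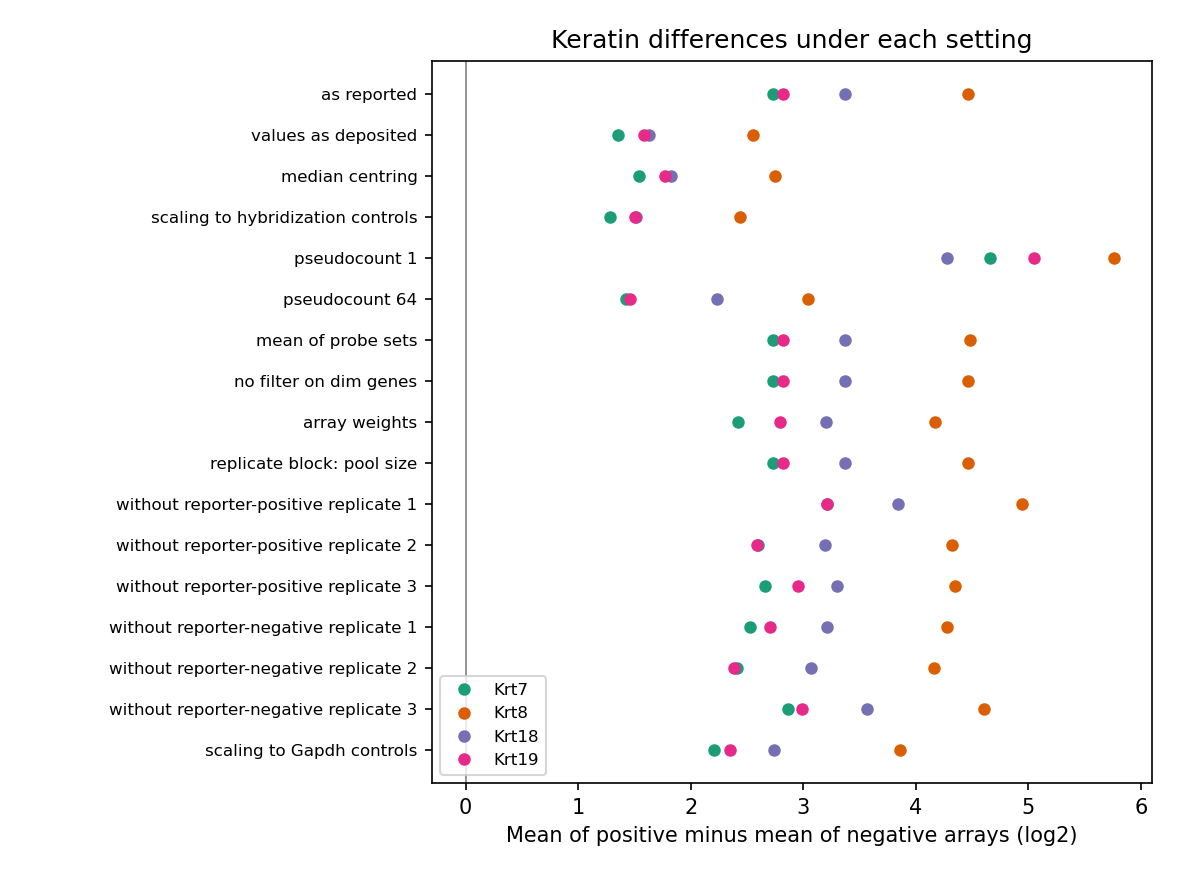
Mean of the positive arrays minus mean of the negative arrays (log2) for the 4 keratins under each setting, 1 row a setting. All points lie right of 0, from 1.28 for Krt7 with scaling to hybridization controls to 5.76 for Krt8 with a constant of 1.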

How the data were processed

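Biotin-labelled total RNA of sorted cells was hybridized to Affymetrix mouse arrays, per the labels' protocols. The authors deposited an intensity for every probe set of every array, never negative and read as linear. The submitters' processing notes name GCOS for 1 sample, with no version. How probes were summarized, scaled or filtered was not given in these sources. Groups came from the labels' cell type.

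After 64 control probe sets were set aside, the other 45037 signals were quantile normalized and taken as log2(signal + 16). The annotation gave 1 gene to 34945 probe sets, several to 932 and no name to 9160, and 34741 were matched to the RefSeq gene table of GRCm38.p6. Each of 18193 genes was represented by its brightest probe set, and the test took those brighter on average than the 30th percentile, 14071 genes in 6 arrays and 13960 in 5. The test was limma 3.58.1 under R 4.3.3 (lmFit, then eBayes with trend), adjusted by Benjamini-Hochberg, at a threshold of 0.05. Its p-values rest on the spread between arrays, each a pool, which may be technical. Background was judged from 27 unspiked bacterial controls, and scaling from 18 hybridization and 3 Gapdh control probe sets. The precision is limited by 3 arrays a group, and in the 5 arrays by a positive group of replicates 1 and 2 alone.

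The 4 keratins and the lists, 186 genes of which 139 were tested, were chosen with earlier results of these data known. Their counts of genes past the threshold are thus descriptions. Named were the 4 keratins, Shh, the 5 nearest profiles, other keratins past the threshold in either fit and some others of each type. In other lists only some members past it and some others were named, and none from the red cell and leukocyte lists. Muc1, Prom1, Fn1, Zeb1, Zeb2, Msln, Lrrn4, Gpm6a, Wt1, Upk3b, Muc16, Aldh1a2, Krt5, Krt17, Krt78 and Eif4b were picked after their values were seen. Promoter entries covered 3 of the 4 keratins. The steps were tested on simulated data. Alternatives were other scalings, constants of 1 and 64, the mean of probe sets, no filter, array weights, a replicate block for pool size and leaving out each array. Scaling to Gapdh was added after seeing the data.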

Additional observations from a re-analysis of the deposited data

How the results depend on the processing

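Under all 16 alternatives the differences of Krt7, Krt8, Krt18 and Krt19 kept their sign. They moved by more than the spread between replicates under 5 of them. For Krt7, Krt8, Krt18 and Krt19 in turn, the log2 difference was 1.35, 2.55, 1.63 and 1.58 with values as deposited, 1.54, 2.75, 1.82 and 1.77 with median centring, and 1.28, 2.44, 1.51 and 1.5 with scaling to hybridization controls. It was 4.66, 5.76, 4.28 and 5.05 with a constant of 1, and 1.42, 3.04, 2.23 and 1.46 with a constant of 64. A smaller constant widens the differences of dim genes by construction. Scaling to the Gapdh controls, an alternative chosen after seeing the data, gave 2.21, 3.86, 2.74 and 2.35.

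The count of genes past the threshold, 2 in the 6 arrays, was 0 with values as deposited, 33 with median centring, 0 with scaling to hybridization controls, 7 with a constant of 1, 0 with a constant of 64, 0 with the mean of probe sets and 480 with array weights, of which 255 were higher and 225 lower (limma). At an unadjusted p under 0.05 the settings with a count of 0 had 401 (as deposited), 703 (hybridization controls), 663 (constant of 64) and 775 (mean of probe sets) genes. Leaving out 1 array gave 0 to 84 genes: 22, 4 and 84 without positive replicates 1, 2 and 3, and 0 without any 1 of the negative replicates 1, 2 and 3, where 289, 260 and 597 genes had an unadjusted p under 0.05. Krt8, the 1 keratin of the 4 that passed, was lost without any 1 negative array, with values as deposited, median centring, scaling to hybridization or Gapdh controls, a constant of 64 and the mean of probe sets, so that 0 of 4 passed there. Krt8 and Krt18 passed with a constant of 1, and 4 of 4 passed without positive replicate 1 or 3 and with array weights. For other keratins the count of 0 became 1 with median centring (Krt6a, at 1.06), 3 with array weights (Krt15, Krt6a and Krt75), and 0 to 2 when 1 array was left out. The causes were not tested.

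A replicate block for pool size kept the count at 2 genes, and at 0 other keratins, with the keratin differences at 2.73, 4.46, 3.37 and 2.82 for Krt7, Krt8, Krt18 and Krt19. Deviations from the group means correlated at 0.127, 0.033 and 0.109 for positive and negative arrays of equal number. For unequal numbers they correlated at -0.131 to 0.063. The sample titles number the arrays in consecutive positive and negative pairs of equal pool size. Whether equal numbers share embryos cannot be told from these values, and the main fit used no pairing.

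Signal limits the negative group most. Krt7 was above background on 1 of 3 negative arrays, and Krt19 on 2 of 3, so their levels there are close to a bound. In positive replicate 3 the keratin values rest on deposited signals of 2.67 to 12.5.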
